A study of Homo sapiens with 18 samples.

Results

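The expression of 10 genes of the BCL2 family was followed in OVCAR-3 cells exposed to BET inhibitors (BETi). The genes were listed by name and found in the count tables by matching Ensembl gene identifiers to symbols, 10 of 58825 genes in all. They are BCL2, BCL2L1, BCL2L2 and MCL1, which encode proteins that keep cells alive, BAX and BAK1, which encode the pore-forming effectors, and BCL2L11, BBC3, PMAIP1 and BMF, which encode BH3-only proteins. OVCAR-3 is an established cell line of high-grade serous ovarian carcinoma (HGSC). Cells in stripped medium received 1 µM i-BET858, 1 µM i-BET151 or the solvent DMSO, and RNA was taken at 4 h and at 24 h, with 3 biological replicates in each of the 6 groups and 18 libraries in total. Per the study, i-BET858 is a bivalent pan-BET inhibitor and i-BET151 an earlier BETi. The results therefore describe 1 cell line at 1 dose of each compound.

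Proteins of the BCL2 family control the outer membrane of mitochondria. Active BAX and BAK form pores through which cytochrome c leaves, after which the apoptosome and caspases dismantle the cell. BCL-2, BCL-XL (from BCL2L1), BCL-W (from BCL2L2) and MCL-1 hold BAX and BAK in check, while BH3-only proteins such as BIM (BCL2L11), PUMA (BBC3), NOXA (PMAIP1) and BMF occupy the survival proteins or act on the effectors directly. In ovarian carcinoma BCL-XL and MCL-1 are widely studied as survival factors and drug targets. BET proteins, the targets of both compounds, bind acetylated histones and assist transcription.

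The libraries held 27323969 to 46299994 counts each (median 32267434). The 6 libraries of replicate 3 stood apart, with 17817 to 20642 genes that had any count against 23674 to 24947 in the 12 libraries of replicates 1 and 2, so results are also given from replicates 1 and 2 alone. All 10 epithelial and serous markers looked at, PAX8, WT1 and EPCAM among them, had counts in 18 of 18 libraries, and the fibroblast and blood markers LUM, DCN and CD3E had a median of 0 CPM. COL1A1, a collagen gene also listed as a fibroblast marker, lay at 21.2 to 45.9 CPM. The part of any admixed cell type in the results was not tested.

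The promoters of 4 members that moved at 4 h are shown first, since BCL2L11 and PMAIP1 rose together there while BCL2L1 and BMF fell together. RefSeq promoters (GRCh38.p14) were matched for 8 of the 10 members, all but BCL2L2 and MCL1, and each run below holds the 250 bases before the annotated start, 5′ to 3′ on the strand of the gene. Where a gene had 2 starts, the one nearest to the 5′ end of the gene model is given. Capitals mark matches, on either strand, to the E-box (letters CACGTG), the TATA box (letters TATAAA), the GC box (letters GGGCGG), the CCAAT box, the AP-1 element (letters TGANTCA), the cAMP response element (letters TGACGTCA) or the forkhead element (letters GTAAACA). The motifs do not contain one another. The regions are chr2:111120664-111120913 on the plus strand for BCL2L11, chr18:59899746-59899995 on the plus strand for PMAIP1, chr20:31723964-31724213 on the minus strand for BCL2L1 and chr15:40108880-40109129 on the minus strand for BMF.
BCL2L11: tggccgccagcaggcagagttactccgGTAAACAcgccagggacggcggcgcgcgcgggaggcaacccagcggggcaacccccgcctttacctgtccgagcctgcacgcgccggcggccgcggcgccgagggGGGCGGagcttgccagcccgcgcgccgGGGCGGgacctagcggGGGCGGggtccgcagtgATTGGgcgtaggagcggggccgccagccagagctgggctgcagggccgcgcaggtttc
PMAIP1: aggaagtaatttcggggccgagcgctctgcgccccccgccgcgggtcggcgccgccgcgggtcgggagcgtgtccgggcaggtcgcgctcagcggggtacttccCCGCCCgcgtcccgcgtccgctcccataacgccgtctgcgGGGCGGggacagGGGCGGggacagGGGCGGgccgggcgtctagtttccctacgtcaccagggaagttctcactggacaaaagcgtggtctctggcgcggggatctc
BCL2L1: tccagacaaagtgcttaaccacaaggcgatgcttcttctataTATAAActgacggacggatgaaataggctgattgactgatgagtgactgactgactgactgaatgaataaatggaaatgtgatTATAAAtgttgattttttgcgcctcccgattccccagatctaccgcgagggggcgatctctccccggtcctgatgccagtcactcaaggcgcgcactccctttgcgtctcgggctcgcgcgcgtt
BMF: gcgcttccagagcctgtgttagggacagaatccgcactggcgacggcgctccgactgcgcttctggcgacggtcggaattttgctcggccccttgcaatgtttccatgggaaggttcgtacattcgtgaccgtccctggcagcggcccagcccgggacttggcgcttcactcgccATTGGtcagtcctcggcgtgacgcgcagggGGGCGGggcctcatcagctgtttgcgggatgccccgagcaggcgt

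The promoter of BCL2L11 was 76.8% G and C and held 3 GC boxes, 1 CCAAT box and 1 forkhead element, the last of which was found in 2.98% of all 35116 promoters of the table. That of PMAIP1 was 72.8% G and C and held 4 GC boxes, a motif present in 42.6% of all promoters. BCL2L1 had a promoter with 50.0% G and C, without a GC box and with 2 TATA boxes, which 10.7% of all promoters held at least once. The BMF promoter was 65.2% G and C and held 1 GC box and 1 CCAAT box, the latter seen in 32.0% of all promoters. None of the 4 held an E-box, an AP-1 element or a cAMP response element, which occurred in 6.34%, 6.57% and 1.65% of all promoters. The median over all promoters was 58.0% G and C. These letters describe the windows only.

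In DMSO at 4 h, where levels are given as CPM (counts scaled to library size by TMM) per kilobase of exon so that genes can be compared, MCL1 was the highest member at 77.6 ± 4.56 (SD, n = 3). BCL2L1 followed at 41.6 ± 1.77 and BAK1 at 21.0 ± 1.58. BAX stood at 9.03 ± 0.46. The next pairs of neighbours, BMF at 7.48 and BCL2L2 at 7.19, and BCL2L11 at 5.72 and PMAIP1 at 5.61, did not differ beyond their spread. BBC3 at 1.32 ± 0.27 and BCL2 at 0.15 ± 0.02 were the lowest. BCL2 made up 0.12% of the summed per-length level of the 4 survival genes in DMSO at 4 h, and BCL2L1 32.9%. After 24 h in DMSO the first 6 places were held by the same genes in the same order, while PMAIP1 at 5.83 stood before BCL2L11 at 5.05 with overlapping libraries.

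**Figure D1:**
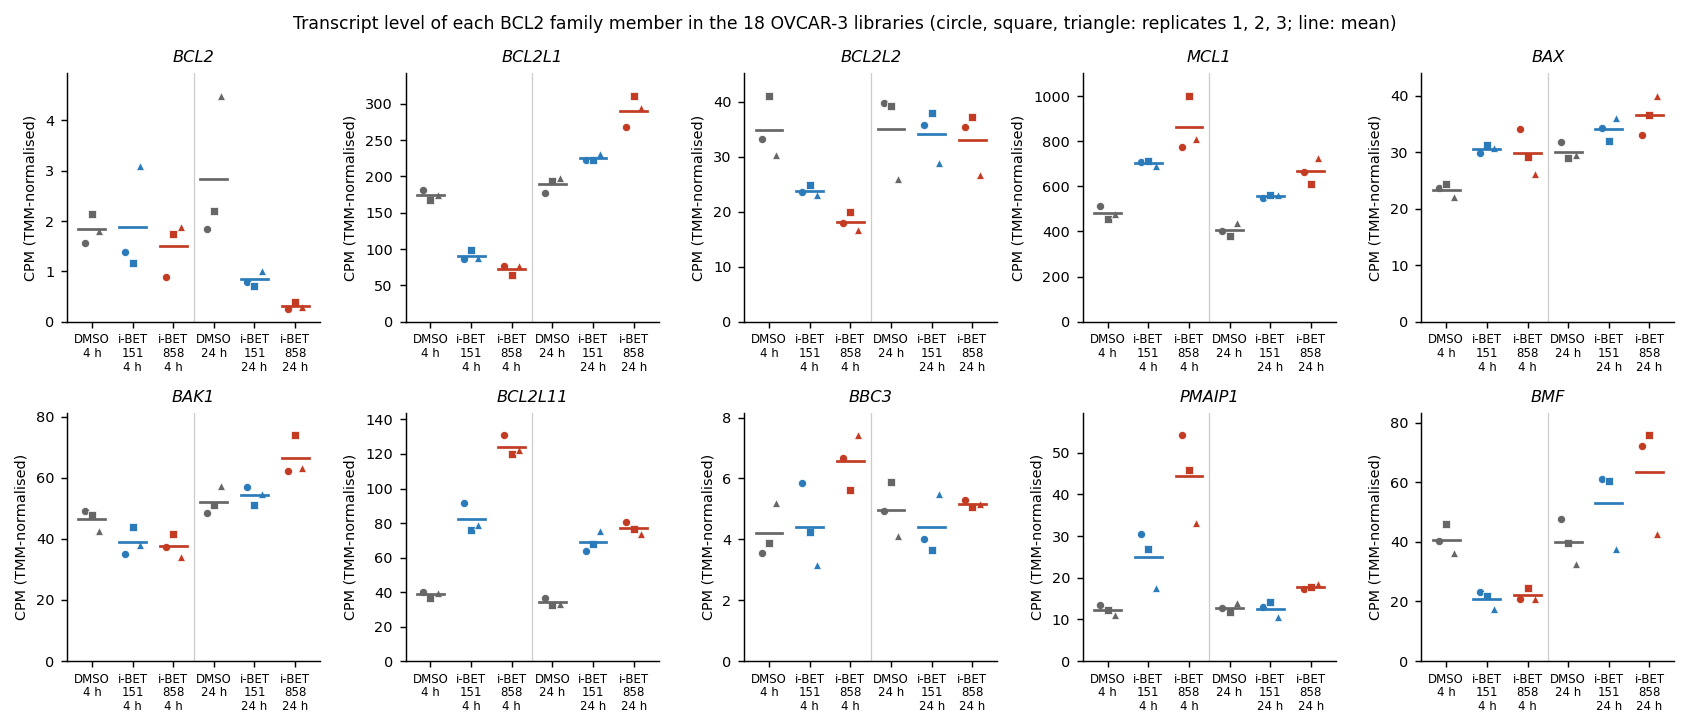
Transcript level of each member in TMM-normalised CPM (linear axis from 0) against treatment and time. Each point is 1 library and each line the mean of 3; the 3 libraries with i-BET858 at 4 h lie between 64.8 and 76.9 CPM for BCL2L1, below all DMSO libraries, and between 120 and 131 CPM for BCL2L11, above all of them.

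The first question was which members responded to i-BET858 within 4 h. All 10 passed the filter on low counts at both times. With i-BET858, transcripts of 3 members rose (BCL2L11, PMAIP1 and MCL1) and those of 3 fell (BCL2L1, BCL2L2 and BMF) at an adjusted p below 0.05 (edgeR's quasi-likelihood test, Benjamini-Hochberg over all genes tested), while 4 did not pass. Over all 17192 genes tested, 14.5% rose and 16.3% fell. With a fold change of at least 2 as a second condition, 3 members (BCL2L11, PMAIP1 and BCL2L1) were called, against 14.1% of all genes. The median log2 fold change of the members was 0.03, beside 0.02 over all genes. In these bulk libraries, fewer cells with a transcript and less of it per cell cannot be told apart.

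Among the survival genes, BCL2L1, which encodes the longer BCL-XL and the shorter pro-apoptotic BCL-XS, was at 182, 167 and 175 CPM in the DMSO libraries at 4 h and at 76.4, 64.8 and 76.9 CPM with i-BET858. Every treated library lay far below every control library, with no overlap. BCL2L1 fell by 1.26 on the log2 scale (SE 0.12), 2.40-fold lower, with an adjusted p of 1.63e-05. BCL2L2, the gene of BCL-W, went from 33.1, 41.0 and 30.2 CPM in DMSO to 17.96, 19.9 and 16.7 CPM. The groups were again separate. Its log2 fold change was −0.94 (SE 0.15, adjusted p = 6.66e-04).

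MCL1, whose protein turns over quickly and binds NOXA, moved the other way. Its libraries were at 513, 456 and 480 CPM in DMSO and at 776, 1001 and 808 CPM with i-BET858. All treated libraries were higher than all controls, and the second one was the highest of the 18. MCL1 rose by 0.84 on the log2 scale (SE 0.11, adjusted p = 1.76e-04). The share of MCL1 in the per-length sum of the 4 survival genes was 61.3 ± 0.97% in DMSO and 86.6 ± 2.22% with i-BET858, and that of BCL2L1 was 11.0 ± 2.14% with i-BET858. BCL2, the founding survival gene of the family, had only 25 to 85 counts per library in these 2 groups. Its log2 fold change of −0.29 had a 95% confidence interval of −1.26 to 0.68 and did not pass (adjusted p = 0.675).

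The effectors moved little at 4 h. BAX, which moves from the cytosol to mitochondria when activated, was at 23.6, 24.4 and 22.1 CPM in DMSO and at 34.1, 29.1 and 26.1 CPM with i-BET858. BAK1, whose product resides at mitochondria, was at 49.2, 47.7 and 42.5 CPM in DMSO and at 37.5, 41.6 and 33.9 CPM with i-BET858. In both genes the groups were separate by a small gap. The log2 fold changes were 0.35 for BAX (adjusted p = 0.0736) and −0.30 for BAK1 (adjusted p = 0.119). In a fit that blocks on replicate number and so takes out what same-numbered libraries share, the adjusted p was 0.0247 for BAX and 0.0285 for BAK1. BAX also passed in the fit of all 18 libraries (adjusted p = 0.0309) and without replicate 3 of i-BET858 (0.0393), and BAK1 when scaled to library totals alone (−0.46, adjusted p = 0.0319).

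Of the BH3-only genes, BCL2L11, the gene of BIM, had 39.7, 36.4 and 39.6 CPM in the 3 DMSO libraries and 131, 120 and 122 CPM with i-BET858. The lowest treated library was over 3 times the level of any control. BCL2L11 rose 3.22-fold (log2 fold change 1.69, SE 0.12, adjusted p = 3.01e-06), the smallest adjusted p of the 10 members in this comparison. PMAIP1, the gene of NOXA, went from 13.4, 12.3 and 11.1 CPM to 54.2, 45.9 and 33.1 CPM. The treated libraries varied more than those of BCL2L11, but none came near the controls. Its rise of 1.85 on the log2 scale (3.62-fold, SE 0.23, adjusted p = 1.33e-04) was the largest of the members.

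BMF, whose product is held at the cytoskeleton by a dynein light chain, did not follow the other BH3-only genes. Its DMSO libraries lay at 40.2, 45.9 and 36.2 CPM and those with i-BET858 at 20.9, 24.7 and 20.8 CPM. There was no overlap between the groups. The log2 fold change was −0.88 (SE 0.16, adjusted p = 0.00128). BBC3, the gene of PUMA, was at 3.54, 3.86 and 5.19 CPM in DMSO and at 6.67, 5.62 and 7.42 CPM with i-BET858. Its libraries were separate, but the log2 fold change of 0.65 (SE 0.27) did not pass (adjusted p = 0.0954), whereas it did with the replicate block (adjusted p = 0.0480) and from replicates 1 and 2 alone (0.0312). In the blocked fit 9 of the 10 members passed in all, the 6 above among them, beside 45.4% of all genes. From replicates 1 and 2 alone 7 members passed, again including those 6, beside 41.9% of all genes.

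i-BET151 at the same dose and time gave the same calls with smaller changes in 5 of the 6 genes; its comparison shares the DMSO libraries with that of i-BET858. There were 3 members that rose and 3 that fell, against 7.81% and 8.43% of all genes, and 2 at a fold change of at least 2 (BCL2L11 and PMAIP1), against 7.10%. BCL2L1 was at 86.8, 99.0 and 87.0 CPM and fell by 0.94 on the log2 scale (adjusted p = 3.12e-04). MCL1 was at 707, 712 and 690 CPM, closely grouped and above every control library, with a log2 fold change of 0.54 (adjusted p = 0.00626). BCL2L11 was at 91.8, 76.0 and 78.8 CPM and rose by 1.09 (adjusted p = 1.38e-04). All 3 genes were thus clear of the DMSO range.

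PMAIP1 was at 30.5, 26.8 and 17.5 CPM with i-BET151, and the lowest of these was still above all controls. Its log2 fold change of 1.02 passed (adjusted p = 0.0110) but lost the call without replicate 1 of i-BET151 (adjusted p = 0.0559). BCL2L2 was at 23.6, 24.8 and 22.9 CPM, below every DMSO library. The log2 fold change was −0.55 (adjusted p = 0.0267), and the call was lost when any 1 of 5 libraries was left out, replicates 1 and 2 of DMSO and all 3 of i-BET151, at adjusted p values of 0.0627 to 0.135. BMF, at 23.03, 21.8 and 17.5 CPM, fell by 0.97 (SE 0.16, adjusted p = 0.00161). This was the largest fall of the members under this compound at 4 h, close to that of BCL2L1 (0.94, SE 0.12). BAX did not pass (log2 fold change 0.39, adjusted p = 0.0789) but did with the replicate block (0.0184) and in the fit of all 18 libraries (0.0255). BCL2, BAK1 and BBC3 had log2 fold changes of 0.04, −0.26 and 0.07 with libraries that overlapped those of DMSO, and none passed.

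**Figure D2:**
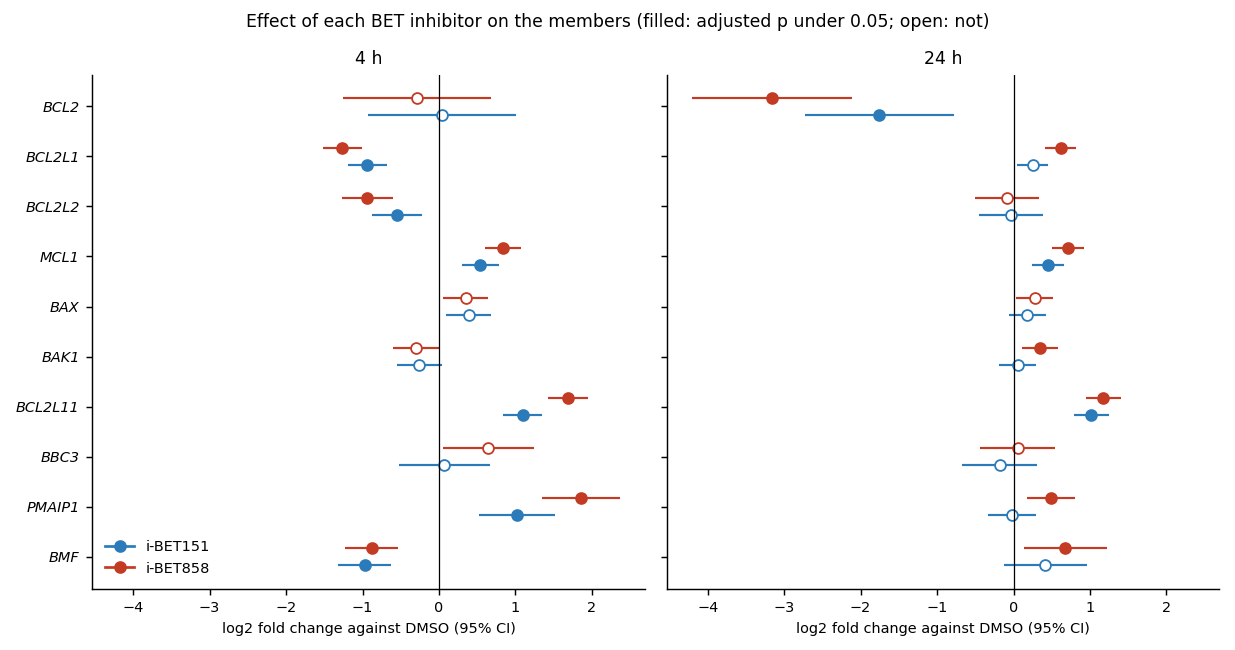
Log2 fold change of each member against DMSO at 4 h (left) and 24 h (right) with its 95% confidence interval, red for i-BET858 and blue for i-BET151; filled points passed at an adjusted p below 0.05. BCL2L1 lies at −1.26 (i-BET858) on the left and at 0.62 on the right, while MCL1 and BCL2L11 lie to the right of 0 in all 4 comparisons.

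The second question was what remained of this response a day later. After 24 h with i-BET858, 6 members rose (BCL2L1, MCL1, BAK1, BCL2L11, PMAIP1 and BMF) and 1 fell (BCL2), against 20.5% and 21.3% of the 17157 genes tested. At a fold change of at least 2 only BCL2L11 and BCL2 were called, 2 of 10 members beside 18.8% of all genes. The median log2 fold change of the members was 0.42, and that of all genes −0.01. Without replicate 2 of DMSO, or without replicate 2 of i-BET858, 4 members passed instead of 7. Fewer of all genes were called in these fits too. There 2839 rose and 3020 fell of 17713, and 3032 rose and 3112 fell of 17632, in the same order. With all 9 libraries 3510 rose and 3648 fell of 17157. From replicates 1 and 2 alone the same 7 passed, beside 60.7% of all genes.

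BCL2L1 had turned round. It was at 177, 194 and 197 CPM in the DMSO libraries and at 268, 311 and 293 CPM with i-BET858. The treated libraries now lay above all controls, where at 4 h they had lain below. BCL2L1 rose by 0.62 on the log2 scale (1.54-fold, SE 0.09, adjusted p = 3.44e-04). MCL1 was at 403, 381 and 435 CPM in DMSO and at 663, 611 and 724 CPM with i-BET858. Its libraries stayed separate from the controls, with a log2 fold change of 0.71 (SE 0.09, adjusted p = 1.48e-04). The share of MCL1 in the 4 survival genes was 58.4 ± 3.35% with i-BET858, beside 55.4 ± 2.16% in DMSO. BCL2L2, which had been lower at 4 h, was at 39.8, 39.3 and 26.0 CPM in DMSO and at 35.3, 37.1 and 26.7 CPM with i-BET858. The ranges overlapped, with the lowest value of each group in replicate 3, and the log2 fold change of −0.08 did not pass (95% confidence interval −0.50 to 0.33).

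BCL2 showed the largest change of any member, at a low level. Its DMSO libraries were at 1.84, 2.20 and 4.49 CPM, and those with i-BET858 at 0.26, 0.39 and 0.29 CPM, from 10 to 14 counts per library. Replicate 3 of DMSO was the highest of all 18 libraries, but even the lowest control was over 4 times the highest treated library. BCL2 fell by 3.16 on the log2 scale (SE 0.47, adjusted p = 3.57e-04), and by 2.64 from replicates 1 and 2 alone (adjusted p = 3.40e-05). The gene passed the filter on low counts at 24 h through the DMSO and i-BET151 libraries. Per length its mean level with i-BET858 was 0.03, the lowest of any member in any group.

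BAK1 was at 48.5, 51.0 and 57.2 CPM in DMSO and at 62.4, 74.0 and 63.0 CPM with i-BET858 at 24 h. The groups did not overlap, and BAK1 rose by 0.35 (SE 0.11, adjusted p = 0.0243), the opposite side of 0 from its value at 4 h. This call was lost without replicate 1 or 2 of DMSO or without replicate 2 of i-BET858 (adjusted p = 0.0962, 0.0810 and 0.103). BAX stood at 31.7, 28.9 and 29.5 CPM in DMSO and at 33.0, 36.5 and 39.9 CPM with i-BET858. These groups were separate too, yet the log2 fold change of 0.28 did not pass (adjusted p = 0.0621). It did with the replicate block (0.0360), in the fit of all 18 libraries (0.0382) and without replicate 3 of i-BET151 (0.0478).

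BCL2L11 had 36.5, 32.7 and 33.0 CPM in the DMSO libraries and 80.7, 76.4 and 73.6 CPM with i-BET858. It was the only member that more than doubled at both times, and it rose by 1.17 at 24 h (2.26-fold, SE 0.10, adjusted p = 9.55e-06). PMAIP1 was at 12.7, 11.7 and 13.8 CPM in DMSO and at 17.2, 17.9 and 18.6 CPM with i-BET858. The groups were still separate, by a much narrower gap than at 4 h. Its log2 fold change of 0.49 (SE 0.14, adjusted p = 0.0181) was lost as a call without replicate 1 or 2 of DMSO or replicate 2 of i-BET858 (adjusted p = 0.0555, 0.0798 and 0.0501).

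BMF lay at 47.6, 39.5 and 32.5 CPM in DMSO and at 72.2, 75.9 and 42.7 CPM with i-BET858. Replicate 3 was the lowest in each group, and its treated library lay below the highest control, so that 8 of 9 pairs of a treated and a control library had the higher value with i-BET858. BMF rose by 0.67 (SE 0.25, adjusted p = 0.0476). The call was lost without replicate 2 or 3 of DMSO, replicate 1 or 2 of i-BET858, or replicate 1 or 2 of i-BET151, which entered the fit for its spread (adjusted p 0.0536 to 0.166). It was firmer within replicate numbers (adjusted p = 2.36e-04 with the block) and in replicates 1 and 2 alone (log2 fold change 0.76, adjusted p = 1.99e-05). BBC3 was at 5.28, 5.05 and 5.16 CPM beside 4.92, 5.89 and 4.12 CPM in DMSO. Its log2 fold change was 0.05 (95% confidence interval −0.44 to 0.54).

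With i-BET151 at 24 h, MCL1 and BCL2L11 rose and BCL2 fell, against 17.2% and 16.6% of all genes, and 2 members reached a fold change of 2 (BCL2L11 and BCL2), against 13.7%. BCL2L11 was at 63.7, 67.8 and 75.6 CPM, about the level seen with i-BET858, and rose by 1.02 (adjusted p = 4.11e-05). MCL1 was at 547, 560 and 562 CPM and rose by 0.45 (adjusted p = 0.00350). BCL2 was at 0.80, 0.71 and 1.02 CPM, between the controls and i-BET858 with no overlap on either side. Its fall of 1.76 (adjusted p = 0.0105) lost the call without replicate 3 of DMSO (log2 fold change −1.25, adjusted p = 0.0514).

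BCL2L1 was at 222, 222 and 231 CPM with i-BET151 at 24 h, above every control library. The log2 fold change of 0.25 did not pass (adjusted p = 0.0578) but did with the replicate block (adjusted p = 0.0137), from replicates 1 and 2 alone (0.0219), in the fit of all 18 libraries (0.0375), and without replicate 3 of DMSO (0.0369) or of i-BET858 (0.0495). BMF, at 61.3, 60.5 and 37.5 CPM, had a log2 fold change of 0.41 (adjusted p = 0.229) and passed with the block (0.00922), from replicates 1 and 2 alone (0.00121) and with every gene that had a count kept (0.0174). The block took the count from 3 to 5 members, beside 45.9% of all genes in that fit. BCL2L2, BAX, BAK1, BBC3 and PMAIP1 had log2 fold changes of −0.03, 0.18, 0.06, −0.18 and −0.02, and none passed. From replicates 1 and 2 alone BBC3 was at −0.51 and passed (adjusted p = 0.0209). PMAIP1 was at 12.99, 14.1 and 10.7 CPM, within or just outside the range of DMSO.

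The effects at both times were then compared directly, by testing the interaction of compound and time over the 18 libraries together. For i-BET858 the effect differed between 4 and 24 h in 7 of 10 members, against 27.2% of the 18154 genes tested. It shifted upwards by 1.92 on the log2 scale for BCL2L1 (SE 0.14, adjusted p = 1.26e-07), by 1.60 for BMF (adjusted p = 9.06e-04), by 0.90 for BCL2L2 (adjusted p = 0.0127) and by 0.70 for BAK1 (adjusted p = 0.00442). It shifted downwards for BCL2 (−2.82, adjusted p = 0.00303), PMAIP1 (−1.32, adjusted p = 0.00172) and BCL2L11 (−0.47, adjusted p = 0.0222). All 4 members with an upward shift had been below DMSO at 4 h, and BCL2L1, BMF and BAK1 were above it at 24 h. MCL1 had a shift of −0.08 with a 95% confidence interval of −0.37 to 0.21.

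For i-BET151 the effect differed between the times in 3 members, BCL2L1 (1.21, adjusted p = 4.01e-05), BMF (1.41, adjusted p = 0.00580) and PMAIP1 (−1.02, adjusted p = 0.0209), against 13.8% of all genes. With the replicate block BCL2 (−1.60, adjusted p = 0.0353) and BCL2L2 (0.53, adjusted p = 0.0215) were added, beside 25.2% of all genes in that fit. The shift of PMAIP1 missed the threshold without replicate 3 of DMSO at 4 h, replicate 1 of i-BET151 at 4 h or replicate 3 of i-BET151 at 24 h (adjusted p 0.0520 to 0.0707). That of BCL2L11 under i-BET858 missed it without replicate 2 of DMSO or replicate 1 of i-BET858 at 4 h, or without replicate 1 of DMSO or replicate 3 of i-BET858 at 24 h (adjusted p 0.0537 to 0.0696). The shift of BBC3 did not pass with either compound (−0.55 and −0.23, adjusted p = 0.279 and 0.738), but it did from replicates 1 and 2 alone (−0.77 with i-BET858 and −0.95 with i-BET151, adjusted p = 0.0393 and 0.0250). BCL2L11 under i-BET151 had a shift of −0.05 (95% confidence interval −0.36 to 0.25).

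Time alone changed little in the controls. Between 24 and 4 h of DMSO 0 of 10 members passed in edgeR, beside 0.0386% of all genes, and 0 passed in DESeq2. At an unadjusted p below 0.05 there were 3 members (MCL1, BAX and BCL2L11) beside 9.17% of all genes, with log2 fold changes of −0.32, 0.29 and −0.25. MCL1 was thus somewhat lower, and BAX higher, in all 9 pairs of libraries at 24 h.

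The balance between a death gene and 1 survival gene whose product it targets was followed in each library. It is given as a ratio of levels per kilobase. BCL2L1 was the survival gene that fell most with i-BET858 at 4 h, from 41.6 to 17.3 per kilobase. MCL1 rose from 77.6 to 138 in the same groups. A ratio to BCL2L1 is therefore not the balance against the survival genes together. BCL2L11 relative to BCL2L1 was 0.14 ± 0.0029 in DMSO at 4 h and 1.07 ± 0.08 with i-BET858, with 0.57 ± 0.09 under i-BET151 in between. At 24 h the ratio was 0.11 ± 0.01 in DMSO, 0.19 ± 0.01 under i-BET151 and 0.17 ± 0.02 under i-BET858. The 3 groups at 4 h were widely apart, and the order of the compounds at 24 h was the reverse, with overlapping libraries. PMAIP1 relative to MCL1, another pair whose products bind each other, was 0.07 ± 0.01 in DMSO at 4 h and 0.15 ± 0.04 with i-BET858, where PMAIP1 rose 3.62-fold and MCL1 1.78-fold. At 24 h it was 0.09 in DMSO and 0.08 with i-BET858.

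**Figure D3:**
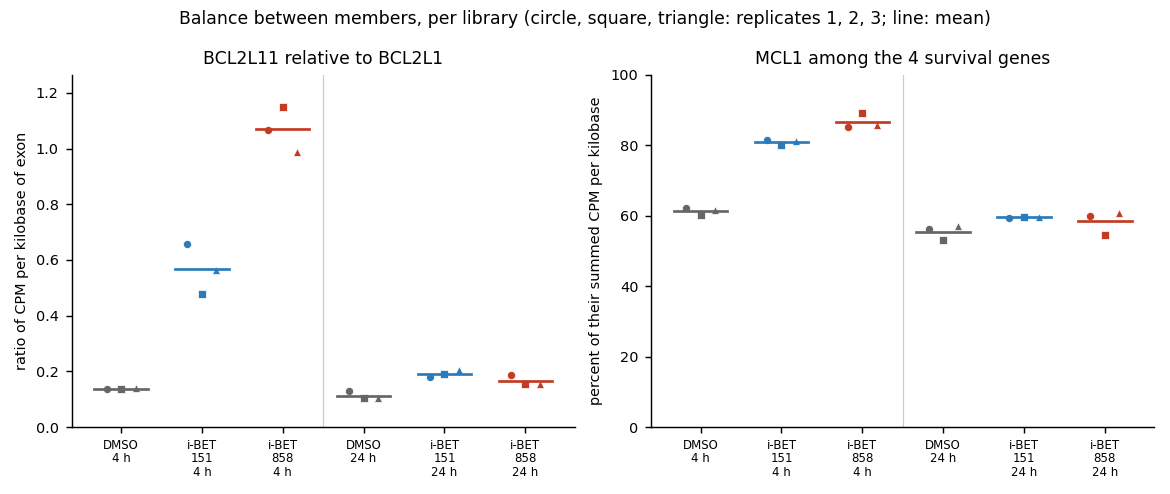
Ratio of BCL2L11 to BCL2L1 (left) and share of MCL1 in the summed level of MCL1, BCL2L1, BCL2L2 and BCL2 (right), both from CPM per kilobase of exon and on linear axes from 0, by treatment and time. Each point is 1 library and each line the mean of 3; the ratio is 1.07 on average with i-BET858 at 4 h and 0.17 at 24 h.

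The make-up of the BH3-only genes changed as well. In the summed per-length level of the 4 BH3-only members, BMF had the largest share in DMSO at 4 h (37.1 ± 3.25%), before BCL2L11 (28.5 ± 2.22%) and PMAIP1 (27.9 ± 1.85%). With i-BET858 at 4 h PMAIP1 took 44.8 ± 5.74% and BCL2L11 41.4 ± 4.01%, while BMF was down to 9.12 ± 1.30%. At 24 h BMF was back at 35.0 ± 6.85% with i-BET858, beside 36.8 ± 4.25% in DMSO. The share of BMF in the libraries with i-BET858 at 4 h did not overlap with that in DMSO.

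Whether the compounds differed from each other was tested at matched dose and time, in 10 members at 2 times, with p-values adjusted over all genes tested. At 4 h 1 member passed, BCL2L11, higher with i-BET858 by 0.60 on the log2 scale (1.51-fold, 95% confidence interval 0.34 to 0.85, adjusted p = 0.0388), against 0.971% of all genes. All 3 libraries with i-BET858 lay above all 3 with i-BET151. The call is a narrow one, since it was lost when any 1 of the 9 libraries in the fit was left out (adjusted p 0.0651 to 0.193). With the replicate block it held (adjusted p = 8.64e-04), and PMAIP1 (0.83, adjusted p = 0.120 without and 8.73e-04 with the block), BCL2L1 (−0.32, 0.255 and 0.0482), BCL2L2 (−0.39, 0.303 and 0.0442) and MCL1 (0.29, 0.279 and 0.0456) passed too, beside 9.63% of all genes in that fit. In each of these 5 genes the libraries of the compounds did not overlap, and i-BET858 was farther from DMSO. How many of all genes were separate between the compounds was not counted. BMF differed by 0.09 (95% confidence interval −0.25 to 0.43), BAX by −0.04 (−0.33 to 0.26) and BAK1 by −0.05 (−0.35 to 0.25). For BCL2, with an interval of −1.30 to 0.65, and BBC3, with −0.02 to 1.17, the difference was poorly determined.

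At 24 h 0 members passed in edgeR, beside 0.210% of all genes, 5 had an unadjusted p below 0.05 (11.4% of all genes), and 2 passed in DESeq2 (BCL2L1 and PMAIP1, beside 2.97% of all genes). BCL2L1 was higher with i-BET858 by 0.37 (95% confidence interval 0.16 to 0.57, adjusted p = 0.151, and 0.0173 with the block). PMAIP1 was higher by 0.51 (0.19 to 0.82, adjusted p = 0.189) and BCL2 was lower, at −1.40 (−2.43 to −0.37, adjusted p = 0.269). Their libraries did not overlap between the compounds, nor did those of MCL1 and BAK1. The share of all genes with libraries separate in this way was not counted, so no difference is read from it. BCL2L11, the member that differed at 4 h, had a difference of 0.16 (−0.06 to 0.38) with overlapping libraries.

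**Figure D4:**
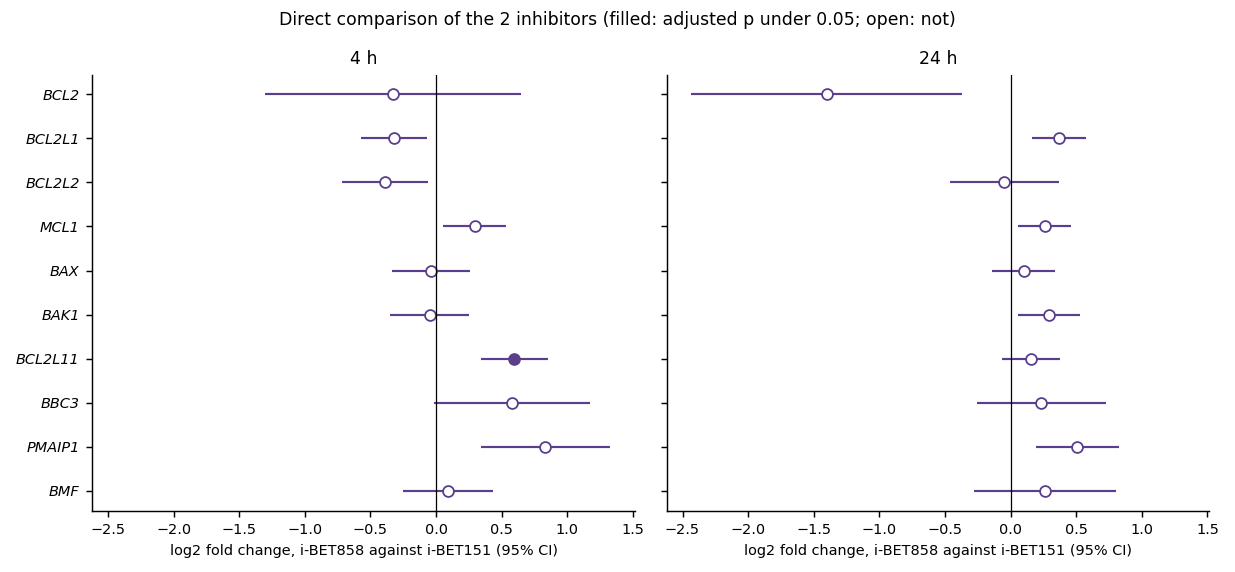
Log2 fold change of each member between i-BET858 and i-BET151 at 4 h (left) and 24 h (right) with its 95% confidence interval; the filled point passed at an adjusted p below 0.05. BCL2L11 at 4 h, at 0.60, is the only filled point, and the interval of BCL2 is the widest at both times.

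Other genes of the pathway were taken from lists chosen by role. Their counts stand beside 14.5% of all genes that rose and 16.3% that fell with i-BET858 at 4 h, and 20.5% and 21.3% at 24 h. Of 12 further BCL2 family genes 9 were tested, and 3 rose and 1 fell with i-BET858 at 4 h, with a median log2 fold change of 0.35 beside 0.02 over all genes. BIK, another BH3-only gene, rose from 1.76 ± 0.61 to 7.13 ± 1.01 CPM at 4 h (log2 fold change 2.02, adjusted p = 2.64e-04) and was at 2.34 ± 0.41 CPM at 24 h, where it did not pass. HRK rose at both times (0.86 and 0.44, adjusted p = 0.00844 and 0.0353). BID, which links caspase-8 to mitochondria, was at 143 ± 10.9 CPM in DMSO and 118 ± 18.2 with i-BET858 at 4 h. It fell at 24 h from 156 ± 36.2 to 34.1 ± 4.76 CPM (log2 fold change −2.19, adjusted p = 4.74e-06). BOK, a relative of BAX and BAK1, fell at both times (−0.68 and −1.55, adjusted p = 0.0122 and 7.33e-05). BCL2L12 rose at 4 h (0.75) and BNIP3 at 24 h (0.84). At 24 h 3 of the 9 rose and 2 fell with i-BET858, with a median of 0.15 beside −0.01 over all genes.

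Among 9 genes of the apoptosome and the caspases, 2 rose and 2 fell with i-BET858 at 4 h (14.5% and 16.3% of all genes), and 5 rose and 3 fell at 24 h (20.5% and 21.3%). The median log2 fold changes were 0.14 and 0.34, beside 0.02 and −0.01 over all genes. CYCS, the gene of cytochrome c, rose by 0.69 at 4 h. CASP9, the caspase of the apoptosome, rose by 1.17 at 24 h (adjusted p = 8.01e-06), while CASP8 and CASP10, the caspases of death receptors, fell by 0.94 and 1.05. CASP2 fell by 0.66 at 4 h and rose by 0.46 at 24 h.

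Of 7 IAP genes and their antagonists, 2 fell with i-BET858 at 4 h, BIRC2 (−0.85, adjusted p = 0.0178) and XIAP (−0.68, adjusted p = 0.0129), whose product inhibits caspases, and 0 rose, against 16.3% and 14.5% of all genes. At 24 h BIRC6 rose by 0.68 and XIAP fell by 0.39. The median of the 7 was −0.38 at 4 h and 0.10 at 24 h. In the death receptor pathway 9 of 10 genes were tested, and 1 rose and 4 fell at 4 h, with a median of −0.75, and 1 rose and 6 fell at 24 h, with a median of −0.79, where 16.3% of all genes fell at 4 h and 21.3% at 24 h. CFLAR, whose product blocks caspase-8, fell by 1.53 and 1.15 at the 2 times, and TNFRSF1A by 1.23 and 0.87. TNFRSF10A, a receptor of TRAIL, fell by 1.04 and 0.79, and at 24 h FAS and TNFSF10, the gene of TRAIL, fell by 2.93 and 1.48.

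Regulators and partners of the members numbered 13, of which 4 rose and 0 fell with i-BET858 at 4 h (14.5% and 16.3% of all genes), and 5 rose and 2 fell at 24 h (20.5% and 21.3%). Their median log2 fold change was 0.42 at 4 h and 0.11 at 24 h. DYNLL1 and DYNLL2, the light chains that tether BIM and BMF, rose at 4 h by 1.16 and 1.24 (adjusted p = 0.00115 and 2.21e-05), and DYNLL2 by 0.79 at 24 h. FOXO3, a transcription factor known to activate BCL2L11, rose from 104 ± 3.91 to 185 ± 25.2 CPM at 4 h (0.83) and by 0.77 at 24 h. HUWE1, a ubiquitin ligase of MCL-1, rose by 0.79 at 24 h. TP73, whose product can activate PMAIP1 and BBC3, fell at 24 h by 1.88.

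With i-BET151 the same lists gave 2 and 0 (further BCL2 family), 2 and 1 (apoptosome and caspases), 0 and 0 (IAP), 0 and 5 (death receptors) and 3 and 0 (regulators) genes that rose and fell at 4 h, when 7.81% of all genes rose and 8.43% fell. At 24 h the numbers were 2 and 2, 5 and 2, 1 and 0, 1 and 5, and 5 and 3 in the same order, beside 17.2% and 16.6% of all genes. BIK rose at 4 h with this compound as well (1.23), and BID fell at 24 h (−1.64).

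The counts are per gene and pool splice forms, so that BCL-XL and BCL-XS, or the long and short forms of MCL1 and BIM, were not separated. Of the exonic bases of BCL2L1, 41.3% are also covered on the other strand by ABALON, which had 7 to 130 counts per library, and of those of BCL2L2 16.8% are shared on the same strand with BCL2L2-PABPN1, which had 0 to 4. The strand setting of the counting is not given in the sources used here. Reads of the ABALON overlap may be missing from the counts of both genes, depending on that setting. Reads of the BCL2L2-PABPN1 overlap, on the same strand, may be missing under any setting. Other overlaps were smaller. On the opposite strand they covered 10.8% of the exonic bases of BCL2L11, 8.46% of BMF, 6.51% of BCL2L2 and 4.11% of BAK1. For MCL1 5.27% were shared on the same strand and 0.691% on the other, and for BBC3 2.39% and 2.51%. Counts of those neighbours were not looked at. For BCL2, BAX and PMAIP1 no exonic base overlaps another gene.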

How the data were processed

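Poly-A RNA of 18 OVCAR-3 libraries was sequenced as paired-end reads. The authors mapped them with STAR on GRCh38 and deposited its raw counts per gene, as 1 table for each time point; annotation, strand setting and version are not given in the sources used here. Identifiers were matched to GENCODE 44 (58472 of 58825, 99.4%), which also gave exon lengths. CPM were computed here with TMM normalisation, and levels per kilobase divide them by exonic length.

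Each time point (9 libraries) was analysed in edgeR 4.0.16 (R 4.3.3) with its filter on low counts, the quasi-likelihood test and Benjamini-Hochberg adjustment; transcripts passed at an adjusted p below 0.05. Interactions, and DMSO over time, were fitted with all 18 libraries, so a shift can differ slightly from the difference of both effects. All comparisons within a time point share libraries. Intervals are at 95%. Alternatives were DESeq2 1.42.0 (named in the authors' methods), edgeR with its size factors or with total library size, no filter or at least 10 counts in every library, other sets of libraries, a 2-fold threshold, each library left out, replicates 1 and 2 alone, and the replicate number as a block. After group means were removed, same-numbered libraries correlated at 0.14 to 0.36 at 4 h and 0.16 to 0.35 at 24 h. Other pairs correlated at −0.34 to 0.23 and −0.33 to 0.32, so the ranges overlapped. With group means removed, positive values in same-numbered pairs push the others down. Since replicate 3 stood apart, these values cannot show whether replicates 1 and 2 are paired. The numbers from the sample titles were therefore used only as a block in an alternative fit. The edgeR and DESeq2 steps were tested on simulated counts.

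The members and lists were chosen with earlier results of these data known. All members were named; of each list, up to 3 genes with the largest change among those that passed with i-BET858 at each time. Some genes this rule names, and 1 list, are not reported here. The spread between replicates sets the errors given; the biological replicates are separate samples by label only.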

Additional observations from a re-analysis of the deposited data

Results flagged for a closer look

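The effect of a compound differed between 4 and 24 h by the test of the interaction of compound and time in 10 cases, on the log2 scale. With i-BET858 these were BCL2 (−2.82), BCL2L1 (1.92), BCL2L2 (0.90), BAK1 (0.70), BCL2L11 (−0.47), PMAIP1 (−1.32) and BMF (1.60). With i-BET151 they were BCL2L1 (1.21), PMAIP1 (−1.02) and BMF (1.41). Of the members with a shift under both compounds, BCL2L1 and BMF crossed from below DMSO to above it with each, although with i-BET151 at 24 h neither passed against DMSO. Both did with the replicate block (adjusted p = 0.0137 for BCL2L1 and 0.00922 for BMF in edgeR) and from replicates 1 and 2 alone (0.0219 and 0.00121). No group of 3 libraries can be searched for single outlying values.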

How the results depend on the processing

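With a fold change of at least 2 added, 3 members passed for i-BET858 and 2 for i-BET151 at 4 h, and 2 for i-BET858 at 24 h (14.1%, 7.10% and 18.8% of all genes). Between the compounds at 4 h 0 members passed, where 16 of all 17192 genes were higher and 20 lower with i-BET858. For the change of the i-BET858 effect 4 members passed, beside 1247 upward and 1491 downward shifts among 18154 genes. The replicate block gave 5 for i-BET151 at 24 h, 5 and 1 between the compounds at 4 and 24 h, and 5 for the change of the i-BET151 effect (45.9%, 9.63%, 4.37% and 25.2% of all genes), and it changed no other count by over 1.5 times. Replicates 1 and 2 alone gave 6, 2, 3 and 5 in the same order (54.2%, 2.29%, 7.29% and 26.3% of all genes). The 1 member between the compounds at 4 h became 2 with DESeq2 (5.21% of all genes), with no filter on low counts and with all 18 libraries. Over all genes, 223 were higher with i-BET858 and 290 lower of 32106 with no filter. With all 18 libraries these were 171 and 378 of 18154. The member count became 0 with total library size (55 and 276 of 17192 genes) and with only the 2 groups compared (0 and 0 of 16520). DESeq2 gave 2 members at 24 h (2.97% of all genes). With each library left out in turn the count for i-BET858 at 24 h was 4 to 8. Over all genes it ranged from 2827 that rose and 2936 that fell of 17641 to 3911 and 4052 of 17724. Between the compounds at 4 h the member count was 0 in every case, with at most 60 genes higher and 69 lower of 17762. BCL2L11, i-BET858 shift, did not pass without the filter on low counts (−0.44), and BAK1 and BMF with i-BET858 at 24 h did not pass with total library size (0.26 and 0.59). DESeq2's size factors changed 0 of 80 member calls. In the comparisons that involve a compound, only members that passed under neither setting changed sign: total library size (BCL2 −0.041 for i-BET151 at 4 h, BBC3 −0.041 for i-BET858 at 24 h, BMF −0.013 for the compounds at 4 h); replicate block (BCL2 −0.050 for i-BET151 at 4 h); replicates 1 and 2 only (BCL2 −0.54 for i-BET151 at 4 h, BBC3 −0.064 for i-BET858 at 24 h, PMAIP1 0.13 for i-BET151 at 24 h, BCL2 0.048 for the compounds at 4 h, BAX 0.052 for the compounds at 4 h, BAK1 0.0062 for the compounds at 4 h); all 18 libraries (PMAIP1 0.0058 for i-BET151 at 24 h). With 1 library left out their ranges crossed 0 for i-BET151 at 4 h, BCL2 −0.52 to 0.28, BBC3 −0.19 to 0.27; for i-BET858 at 24 h, BCL2L2 −0.24 to 0.070, BBC3 −0.047 to 0.19; for i-BET151 at 24 h, BCL2L2 −0.20 to 0.069, PMAIP1 −0.10 to 0.083; for the compounds at 4 h, BCL2 −0.57 to 0.23, BAX −0.15 to 0.049, BAK1 −0.13 to 0.045, BMF −0.020 to 0.17; for the compounds at 24 h, BCL2L2 −0.14 to 0.088; for the i-BET858 shift, MCL1 −0.16 to 0.037, BAX −0.14 to 0.072; for the i-BET151 shift, BCL2L11 −0.12 to 0.036, BBC3 −0.45 to 0.025. The cause of these differences was not tested. BCL2 and BBC3 had at most 134 and 265 counts per library.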
